A study of Homo sapiens with 6 samples.

Results

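The genes described here are 35 human aminoacyl-tRNA synthetases, of which 19 work in the cytosol and 16 in mitochondria. A probe set was taken when the array annotation tied it to exactly 1 gene symbol and that symbol, or its older form without the final 1, was on the list. By this rule 32 of the 35 genes were measured, 17 cytosolic and 15 mitochondrial, among 19775 genes that could be measured in this way. They were carried by 67 of 54613 probe sets. MARS1, QARS1 and TARS2 lay only on probe sets annotated to several symbols and were not analysed here. GARS1 and KARS1 were counted as cytosolic, although each of these genes also encodes the mitochondrial form of its enzyme.

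RNA of 2 human cell lines of bile duct cancer (cholangiocarcinoma, CCA) was measured on 6 Affymetrix arrays, with 1 array for each line and treatment. KKU-100 is labelled as a poorly differentiated cholangiocarcinoma and HuccT1 as a bile duct carcinoma. Each line received regorafenib, an inhibitor of several kinases, at 1 µM (low dose) or 10 µM (high dose), or the solvent alone. These doses are those of the sample labels, while the study's text gives other doses and a single exposure of several hours. According to the labels, all cells had been stably transduced and selected with puromycin, and the construct is not named. Whether these cells therefore differ from the unmodified lines is unknown. The median signal was between 28.8 and 29.3 units on every array. Of 8 measured biliary epithelial markers, 5 were above the array median in KKU-100 and 8 in HuccT1. KRT19, EPCAM and CLDN4 were below it in KKU-100, with 9.47, 10.96 and 23.3 signal units on the solvent array. All comparisons of a dose with solvent rest on single arrays, so these fold changes carry no error and no p-value. Both doses of a line also share its solvent array.

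Aminoacyl-tRNA synthetases join each amino acid to the tRNAs that carry its codons, and protein synthesis in the cytosol and in mitochondria depends on them. The cytosolic and the mitochondrial enzyme for an amino acid are in most cases made from separate nuclear genes. When amino acids run short or unfolded proteins accumulate, kinases of the integrated stress response phosphorylate the initiation factor eIF2, and translation of the transcription factor ATF4 increases. ATF4 binds the C/EBP-ATF response element together with partner proteins and is known to raise the transcription of many cytosolic synthetase genes, along with genes of amino acid synthesis and transport.

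Because many cytosolic members are known ATF4 targets, the core of this element, TGATGNAA, was searched on both strands of the promoter windows from RefSeq (250 bases before to 50 after each gene's start, GRCh38.p14). A window was given for 30 of the 35 members. The core was found in 7 of 10 known ATF4 targets with a window, in 0 of 6 other cytosolic members and in 1 of 14 mitochondrial members. Among all genes with a window 4.46% held it, and among all windows 3.62%. Where the core lies on the opposite strand it reads TTNCATCA in the sequences below, which follow the strand of the gene. Those of the 6 measured cytosolic members and of YARS2, the only mitochondrial member with a match, are shown with the core in capitals.
AARS1: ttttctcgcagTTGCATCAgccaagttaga
CARS1: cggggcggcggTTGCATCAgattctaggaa
GARS1: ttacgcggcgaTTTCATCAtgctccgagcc
IARS1: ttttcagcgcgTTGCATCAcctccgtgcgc
NARS1: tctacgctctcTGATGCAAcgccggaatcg
TARS1: gcgcctttcgaTTGCATCAgctggtccagc
YARS2: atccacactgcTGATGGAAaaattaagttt
The stretches lie at chr16:70289675-70289704 on the minus strand (AARS1), chr11:3057407-3057436 on the minus strand (CARS1), chr7:30594834-30594863 on the plus strand (GARS1), chr9:92293692-92293721 on the minus strand (IARS1), chr18:57621804-57621833 on the minus strand (NARS1), chr5:33440956-33440985 on the plus strand (TARS1) and chr12:32756076-32756105 on the minus strand (YARS2). Counted from the transcript start of each window, the core began 187 bases before the start of AARS1, 33 before that of GARS1, 13 before that of IARS1, 2 before that of CARS1, and at base 3 of a TARS1 transcript and base 15 of a NARS1 transcript. The YARS2 match began 197 bases before the start. A match of these letters is a description of the window and not evidence of binding.

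AARS1 encodes the enzyme for alanine. By the brightest probe set of each gene, it had the largest high-dose fold change in HuccT1 and the largest among the cytosolic members in KKU-100. The 250 bases upstream of its start, at chr16:70289507-70289756 on the minus strand, are given as its promoter, with the core in capitals.
AARS1 upstream: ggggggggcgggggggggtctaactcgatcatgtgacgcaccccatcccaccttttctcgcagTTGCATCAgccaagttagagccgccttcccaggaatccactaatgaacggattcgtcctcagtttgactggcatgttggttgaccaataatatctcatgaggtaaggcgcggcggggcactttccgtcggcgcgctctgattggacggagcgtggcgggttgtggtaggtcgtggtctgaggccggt

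In KKU-100 members of both compartments were higher after regorafenib, and in HuccT1 only cytosolic members were, at a cutoff of 1.5-fold. On the low-dose array of KKU-100, 3 of 17 cytosolic and 4 of 15 mitochondrial members were higher past this cutoff, and on its high-dose array 1 and 3 were. Each gene is counted by its brightest probe set, here and below unless another is named. On these, no member was lower past 1.5-fold in KKU-100. A dimmer probe set of EPRS1 was, at −0.72 (low dose) and −0.93 (high dose) on the log2 scale. On the low-dose array of HuccT1, 2 cytosolic members were higher (AARS1 and CARS1) and 1 mitochondrial member was lower (MARS2). On its high-dose array 6 cytosolic members were higher, and MARS2 was again the only mitochondrial member past the cutoff. All 32 members passed the level filter in both lines, which kept probe sets at or above the 50th percentile of the mean log2 signal. Of all genes past this filter, 9.75% were higher past 1.5-fold and 7.32% lower on the low-dose array of KKU-100, and 9.44% and 4.86% on its high-dose array. In HuccT1 the low-dose array gave 3.68% higher and 3.32% lower, and the high-dose array 8.23% and 6.44%. The 1 cytosolic member in KKU-100 at the high dose was therefore below the share of all genes, and the 6 in HuccT1 were above it. The mitochondrial counts of 4 and 3 in KKU-100 were above the share. In HuccT1, 0 higher and 1 lower of 15 mitochondrial members were close to the shares. The lack of higher ones there is thus no result about this compartment.

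**Figure D1:**
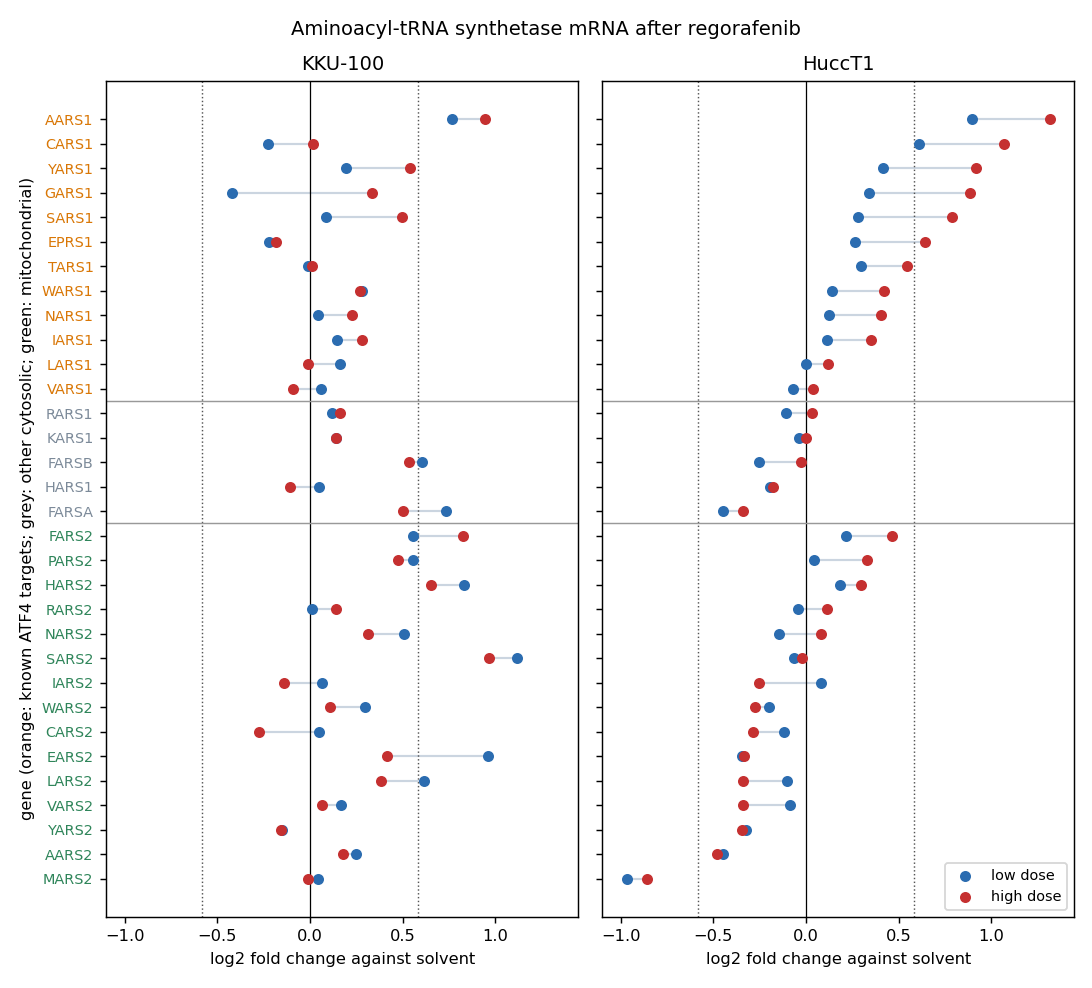
Log2 fold change of every measured synthetase against the solvent array of its line, with low-dose points in blue and high-dose points in red, in KKU-100 (left) and HuccT1 (right), with 1 array per condition and dotted lines at 1.5-fold. All 12 known ATF4 targets lay above 0 in HuccT1 at the high dose, and SARS2 (0.97) and AARS1 (0.94) lay farthest to the right at that dose in KKU-100.

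The median log2 fold change of the cytosolic members was 0.12 (low dose) and 0.23 (high dose) for KKU-100, and 0.13 and 0.41 for HuccT1. That of the mitochondrial members was 0.29 and 0.18 in KKU-100, and −0.10 and −0.27 in HuccT1. All genes past the filter had medians of 0.06 and 0.06 in KKU-100 and of 0.02 and 0.02 in HuccT1. The cytosolic minus the mitochondrial median was thus −0.18 and 0.05 in KKU-100, and 0.23 and 0.68 in HuccT1. When all probe sets of a gene were summarised by their median, the mitochondrial median in HuccT1 at the high dose was −0.09.

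**Figure D2:**
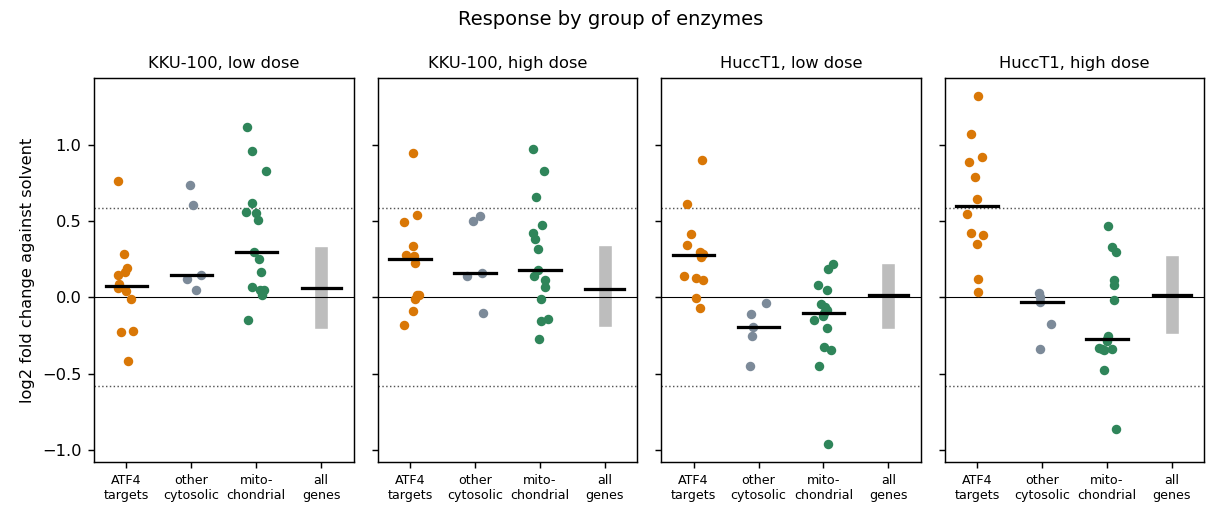
Log2 fold changes against solvent in the 4 comparisons, for the 12 known ATF4 targets among the cytosolic enzymes (orange), the 5 other cytosolic enzymes (grey) and the 15 mitochondrial enzymes (green), where each point is a gene and black lines are medians. The grey bar spans the middle quartiles of all genes that passed the filter, and the cutoff of 1.5-fold is dotted. In HuccT1 at the high dose the ATF4 targets had a median of 0.60 and the mitochondrial enzymes one of −0.27.

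Of the 17 measured cytosolic members, 12 are known ATF4 targets. In KKU-100, 8 of 12 were above 0 on the low-dose array with a median of 0.07, and 9 of 12 on the high-dose array with a median of 0.25. In HuccT1 these counts were 10 of 12 with a median of 0.27, and 12 of 12 with a median of 0.60. Of all genes past the filter, 57.7% and 57.6% were above 0 in KKU-100, and 52.7% and 52.1% in HuccT1, so the counts in KKU-100 were near the share of all genes. On the brightest probe sets, AARS1 was the only cytosolic member past 1.5-fold in KKU-100 at the high dose. All 6 past it in HuccT1, namely AARS1, CARS1, YARS1, GARS1, SARS1 and EPRS1, were known ATF4 targets. That list holds 12 of the 17 members and was chosen with earlier results of these data known, so this overlap is a description only.

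The signal of AARS1 was 867, 1472 and 1666 units in KKU-100 on the solvent, low-dose and high-dose arrays, and 639, 1191 and 1596 units in HuccT1. These signals gave log2 fold changes of 0.76 (low dose) and 0.94 (high dose) for KKU-100, and of 0.90 and 1.32 for HuccT1. Every treated array of a line was therefore above its solvent array by more than 1.5-fold, and AARS1 was the only member for which this held in both lines.

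CARS1, the enzyme for cysteine, had signals of 1518, 1296 and 1536 units in KKU-100 (solvent, low dose, high dose) and of 1628, 2485 and 3420.2 units in HuccT1. In the same order of doses, the log2 fold changes were −0.23 and 0.02 in KKU-100 and 0.61 and 1.07 in HuccT1. Its 3 probe sets past the level filter lay between −0.32 and 0.02 in KKU-100 and between 1.07 and 1.24 in HuccT1 at the high dose, and all 3 were past 1.5-fold at both doses in HuccT1. The solvent arrays of the lines were close for this gene, and the treated ones were apart.

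GARS1, the enzyme for glycine, had signals of 2769.6, 2070.03 and 3499 units in KKU-100 and of 3958, 5010.5 and 7325 units in HuccT1. The log2 fold changes at the low and high dose were −0.42 and 0.34 in KKU-100 and 0.34 and 0.89 in HuccT1. The low-dose array of KKU-100 was the lowest of its line, and the high-dose array lay 0.76 above it on the log2 scale, which was the largest step between the doses of any member in that line.

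YARS1, which loads tyrosine, had signals of 1476, 1689 and 2149 units in KKU-100 and of 1104, 1472 and 2086 units in HuccT1. This gave changes of 0.19 and 0.54 on the log2 scale in KKU-100 and 0.41 and 0.92 in HuccT1. A second, dimmer probe set of YARS1 gave −0.06 in KKU-100 and 0.44 in HuccT1 at the high dose, so that the 1.5-fold cutoff was met by the brighter probe set alone.

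SARS1, which loads serine and also supplies the seryl-tRNA used to make selenocysteine, had signals of 1474, 1564 and 2078 units in KKU-100 and of 1633, 1987 and 2824 units in HuccT1. The log2 fold changes were 0.09 and 0.50 in KKU-100 and 0.28 and 0.79 in HuccT1. Its second probe set, with 114 units on the KKU-100 solvent array and 117 on that of HuccT1, gave 1.02 in KKU-100 and 0.14 in HuccT1 at the high dose. The probe sets of SARS1 thus placed the larger change in different lines, in the same direction.

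EPRS1, a fused enzyme for glutamate and proline, had signals of 1538, 1319 and 1354 units in KKU-100 and of 1292, 1555 and 2019.8 units in HuccT1. The log2 fold changes were −0.22 and −0.18 in KKU-100 and 0.27 and 0.64 in HuccT1. Its 3 probe sets lay between −0.93 and −0.18 in KKU-100 and between 0.40 and 0.69 in HuccT1 at the high dose. The lines thus moved in opposite directions on every probe set at that dose. The value of −0.93, from the dimmest probe set, was lower past 1.5-fold.

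TARS1 (threonine) missed the cutoff, with log2 fold changes of 0.01 in KKU-100 and 0.55 in HuccT1 at the high dose. WARS1 (tryptophan), which interferon also induces, gave 0.27 and 0.42, NARS1 (asparagine) 0.23 and 0.41, and IARS1 (isoleucine) 0.28 and 0.35. LARS1, the leucine enzyme and a leucine sensor for the growth kinase mTORC1, gave −0.01 and 0.12, and VARS1 (valine) −0.09 and 0.04. The known targets thus spread between near 0 and 1.32 in HuccT1. The 6 of them whose promoter window holds the core had high-dose values between 0.01 and 0.94 in KKU-100 with a median of 0.25, and between 0.35 and 1.32 in HuccT1 with a median of 0.72. EPRS1, SARS1 and WARS1, which have a window without the core, lay between −0.18 and 0.50 in KKU-100 with a median of 0.27, and between 0.42 and 0.79 in HuccT1 with a median of 0.64. LARS1, VARS1 and YARS1 had no window. The ranges of members with and without the core overlapped in both lines.

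**Figure D3:**
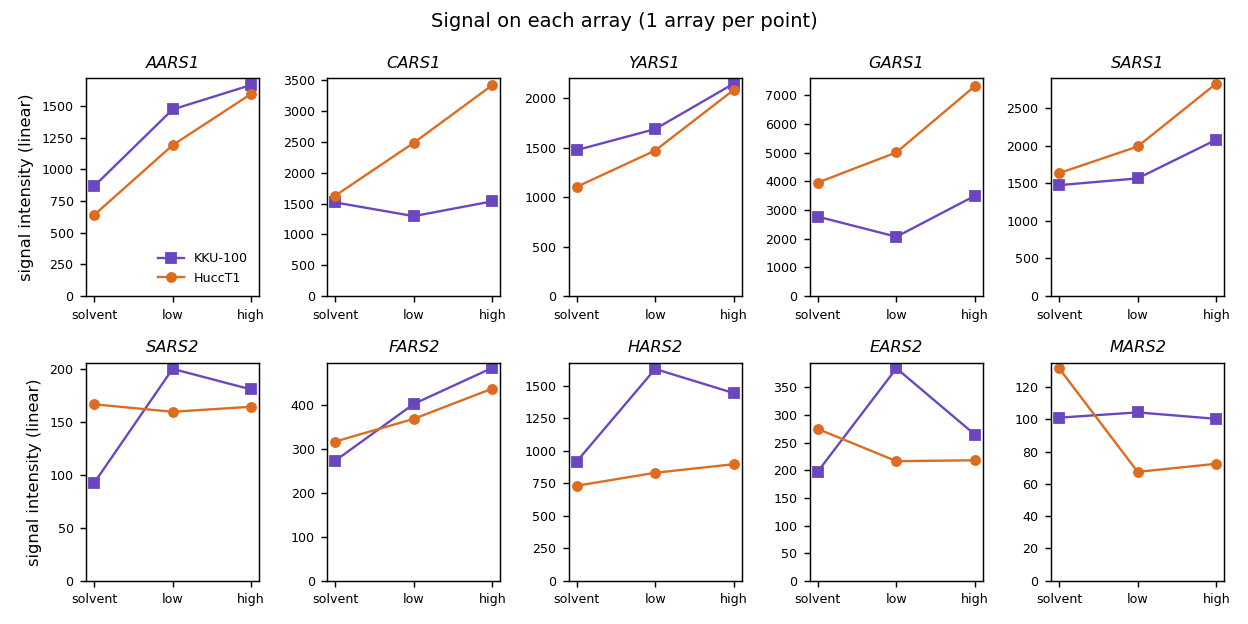
Linear signal intensity of 10 members on the solvent, low-dose and high-dose arrays of KKU-100 (squares) and HuccT1 (circles), with 1 array per point and a vertical axis that starts at 0 in each panel. The top row shows cytosolic enzymes and the bottom row mitochondrial ones. At both doses AARS1 was above solvent past 1.5-fold in both lines, CARS1 in HuccT1 only, and SARS2 in KKU-100 only.

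The 5 other cytosolic members are not counted among the known ATF4 targets. Their median log2 fold change was 0.14 (low dose) and 0.16 (high dose) for KKU-100, and −0.19 and −0.03 for HuccT1. On its brightest probe set none passed 1.5-fold in HuccT1. FARSA and FARSB, the subunits that form the cytosolic enzyme for phenylalanine, stood out in KKU-100. FARSA had signals of 324, 539.6 and 459 units in KKU-100 and of 887, 649 and 702 units in HuccT1. On the log2 scale it changed by 0.73 and 0.50 in KKU-100 and by −0.45 and −0.34 in HuccT1. FARSB had signals of 736, 1118 and 1064 units in KKU-100 and of 1728, 1452 and 1694 units in HuccT1. The corresponding log2 values were 0.60 and 0.53 in KKU-100 and −0.25 and −0.03 in HuccT1. On these probe sets both subunits were higher than solvent on both treated KKU-100 arrays and lower on both treated HuccT1 arrays. Both passed 1.5-fold only at the low dose in KKU-100. A dimmer probe set of FARSA gave 0.41 there and did not pass. A dimmer one of FARSB gave 0.61 there and passed, and it passed 1.5-fold elsewhere too. That probe set read 88.7 to 142.6 units in KKU-100 and 26.6 to 42.4 units in HuccT1. It gave 0.68 in KKU-100 at the high dose and −0.67 in HuccT1 at the low dose. Without the probe sets that can match several transcripts, FARSB is left with a probe set of 8.26 to 11.4 units, below the array medians, which gave −0.15 in KKU-100 at the low dose. HARS1 (histidine), KARS1 (lysine) and RARS1 (arginine) stayed within 1.5-fold on all treated arrays, with log2 fold changes between −0.19 and 0.16.

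Of the mitochondrial members, above 0 were 14 of 15 on the low-dose and 11 on the high-dose array of KKU-100, and 4 and 5 on those of HuccT1. Against 57.7% and 57.6% of all genes in KKU-100 and 52.7% and 52.1% in HuccT1, the high-dose count in KKU-100 was the closest to the share of all genes. SARS2, the mitochondrial enzyme for serine, had signals of 92.4, 200.4 and 180.9 units in KKU-100 and of 167, 159.8 and 165 units in HuccT1. Its log2 fold changes of 1.12 and 0.97 were the largest of all members in KKU-100, against −0.06 and −0.02 in HuccT1. The KKU-100 solvent array was the lowest of the 6 for SARS2, and the other 5 lay between 159.8 and 200.4 units.

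FARS2, the mitochondrial enzyme for phenylalanine, had signals of 274, 403 and 486 units in KKU-100 and of 317, 369 and 438 units in HuccT1. The log2 fold changes were 0.56 and 0.83 in KKU-100 and 0.22 and 0.47 in HuccT1. The high-dose array was the highest in each line, and a second probe set gave 0.61 in KKU-100 and 0.24 in HuccT1 at the high dose.

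HARS2, the mitochondrial enzyme for histidine, had signals of 915, 1628 and 1443 units in KKU-100 and of 730.5, 830.2 and 896 units in HuccT1. Its log2 fold changes were 0.83 and 0.66 in KKU-100 and 0.18 and 0.29 in HuccT1. HARS2 lies head to head with its cytosolic relative HARS1, whose log2 fold changes were 0.05 and −0.11 in KKU-100 and −0.19 and −0.18 in HuccT1. HARS2 was thus above HARS1 in all 4 log2 fold changes although 84 bases separate their starts. The bases between them, at chr5:140691371-140691454 on the plus strand, are shown as a shared upstream region in which the core TGATGNAA does not occur.
HARS1 to HARS2: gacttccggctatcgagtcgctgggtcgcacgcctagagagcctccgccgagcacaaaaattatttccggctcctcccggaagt

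EARS2 (glutamate) had signals of 198, 384 and 264 units in KKU-100 and of 275, 216 and 218 units in HuccT1. Its log2 fold changes were 0.96 and 0.42 in KKU-100 and −0.34 and −0.33 in HuccT1, so it passed 1.5-fold at the low dose of KKU-100 and not at the high dose. LARS2 (leucine) had the same order of arrays within KKU-100, with 319, 490.1 and 416 units in KKU-100 and 295, 275 and 234 units in HuccT1. On the log2 scale LARS2 gave 0.62 and 0.38 in KKU-100 and −0.10 and −0.34 in HuccT1. For both enzymes the low-dose KKU-100 array was the highest of the 6.

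MARS2, the mitochondrial enzyme for methionine, was the only member lower past 1.5-fold on its brightest probe set, and only in HuccT1. It had signals of 101, 104 and 100.2 units in KKU-100 and of 132, 67.4 and 72.4 units in HuccT1. Its log2 fold changes were 0.05 and −0.01 in KKU-100 and −0.96 and −0.86 in HuccT1. AARS2 (alanine), with 207, 246 and 234 units in KKU-100 and 218, 159 and 156 units in HuccT1, gave 0.25 and 0.18 in KKU-100 and −0.45 and −0.48 in HuccT1. The cytosolic and the mitochondrial enzyme for alanine therefore stood on opposite sides of solvent in HuccT1.

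Of the 8 remaining mitochondrial members, none passed 1.5-fold on any treated array. PARS2 (proline) gave log2 values of 0.55 and 0.48 in KKU-100 and 0.05 and 0.33 in HuccT1, and NARS2 (asparagine) 0.51 and 0.31 in KKU-100 and −0.15 and 0.08 in HuccT1. YARS2 (tyrosine), the mitochondrial member with the core in its window, was below 0 in all 4 comparisons, with −0.15 and −0.15 in KKU-100 and −0.32 and −0.35 in HuccT1. CARS2, IARS2, RARS2, VARS2 and WARS2 lay between −0.34 and 0.29.

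The doses of a line can also be set against each other without the solvent array. The high-dose array was above the low-dose array for 10 of 17 cytosolic and 2 of 15 mitochondrial members in KKU-100, and for 17 of 17 cytosolic and 8 of 15 mitochondrial members in HuccT1. Of all genes, 49.0% were above in KKU-100 and 49.2% in HuccT1. In KKU-100, 9 of the 12 known ATF4 targets and 1 of the 5 other cytosolic members were higher at the high dose. The median step of the cytosolic members was 0.04 in KKU-100 and 0.25 in HuccT1 on the log2 scale, and that of the mitochondrial members was −0.15 and 0.01.

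Across the 32 members, the high-dose fold changes of KKU-100 and HuccT1, which share no array, had a Pearson r of 0.36. It was 0.36 over the 17 cytosolic and 0.62 over the 15 mitochondrial members. At the low dose r was −0.11 over all members. Genes are not independent replicates, so these values describe the members only. At the low dose 10 members were above solvent in both lines, 1 was below in both, 17 were above only in KKU-100 and 4 above only in HuccT1. At the high dose 16 were above in both, 5 below in both, 8 above only in KKU-100 and 3 above only in HuccT1. Of all genes past the filter, 57.7% were above 0 in KKU-100 and 52.7% in HuccT1 at the low dose. At the high dose these shares were 57.6% and 52.1%. The joint counts and r were not computed over all genes, so they are no result particular to the synthetases.

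Other genes of translation were mostly within the cutoff, as were most of all genes past the filter. Of the 7 enzymes that belong to the multisynthetase complex, a cytosolic assembly of synthetases, 5 were measured. On their brightest probe sets, EPRS1 in HuccT1 at the high dose was the only change past 1.5-fold among them. AIMP1, a scaffold protein of that complex, gave log2 fold changes of 0.14 in KKU-100 and 0.03 in HuccT1 at the high dose. None of 4 measured cytosolic elongation factors passed 1.5-fold. Of 11 measured genes of mitochondrial translation, QRSL1, a subunit of the enzyme that makes glutaminyl-tRNA in mitochondria, was higher in KKU-100 at the high dose (0.64), and the release factor gene MTRF1L was lower at the low (−0.66) and high dose (−0.65). None of these 11 passed the cutoff in HuccT1. Among all genes past the filter, the high-dose array of KKU-100 had 9.44% higher and 4.86% lower, and that of HuccT1 8.23% and 6.44%. Such small counts in short lists cannot be told apart from these shares. They are thus no result particular to genes of translation.

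Genes of the integrated stress response, of which 10 were measured, were mostly higher in HuccT1, while in KKU-100 most were lower at the low dose and 8 of 10 were above solvent at the high dose. The low-dose array of KKU-100 had 1 of them higher past 1.5-fold and 6 lower, with a median log2 fold change of −1.06, and its high-dose array had 4 higher, with a median of 0.43. The low-dose array of HuccT1 had 6 higher and 1 lower, with a median of 0.87, and its high-dose array had 9 higher, with a median of 2.35. ASNS, which makes asparagine and is an ATF4 target, had signals of 1824, 803 and 2018 units in KKU-100 and of 507, 1363 and 4907 units in HuccT1. ATF3, a stress-induced transcription factor, had 1134, 121 and 1588 units in KKU-100 and 105, 99.9 and 875 units in HuccT1. For 8 of the 10 genes the solvent signal was higher in KKU-100 than in HuccT1, and this array is the denominator of both KKU-100 comparisons. Its part in the fold changes of the synthetases in KKU-100 was not tested. Among the synthetases themselves, 7 of the 12 known ATF4 targets had the higher solvent signal in KKU-100. The share of all genes with the higher solvent signal in KKU-100 was not computed, so both counts are descriptions only.

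A dose effect common to both lines was tested with limma over all 6 arrays, with the line as a block and the lines standing in as replicates. No member and none of 27307 probe sets passed an adjusted p of 0.05 at either dose (0% called). At an unadjusted p below 0.05, 2 members were higher at the low dose (AARS1 and HARS2) and none lower, among 1289 probe sets higher and 1639 lower. At the high dose 9 members were higher, 7 cytosolic and 2 mitochondrial, and none lower, among 2261 probe sets higher and 1820 lower. At the high dose AARS1 had a log2 fold change of 1.13 with a standard error of 0.13 (limma, adjusted p = 0.122), and it was higher in both lines. YARS1 gave 0.73 with a standard error of 0.12 and SARS1 gave 0.64 with a standard error of 0.11 (limma, adjusted p = 0.149 for each), and both were higher in both lines. Leaving out the KKU-100 solvent array brought 5 members past the threshold at the high dose (AARS1, CARS1, GARS1, SARS1 and YARS1), with 1.16% of all probe sets called higher. Leaving out the HuccT1 solvent array brought AARS1 past it at the high dose and AARS1, HARS2 and SARS2 at the low dose, with 0.729% and 2.23% of all probe sets called higher. In each of these fits the solvent level of that line is taken from the other line.

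The same fit compared KKU-100 with HuccT1 over the 3 treatments. The 3 arrays of a line had different treatments and are not replicates of 1 condition. The residual spread of the fit therefore reflects how much the line difference varied between treatments. The standard errors combine this spread with a variance that eBayes estimates from all tested probe sets. Of the members, 5 were higher and 11 lower in KKU-100 at an adjusted p below 0.05, while 26.1% of all probe sets were higher and 25.0% lower. Taking both directions together, 16 of 32 members were called, which was about the share of all probe sets. TARS1 had signals of 1841, 1827 and 1857 units in KKU-100 (solvent, low dose, high dose) and of 3112, 3818 and 4546 units in HuccT1. Its log2 difference was −1.04 with a standard error of 0.11 (limma, adjusted p = 0.00116), and all 3 KKU-100 arrays were below all 3 HuccT1 arrays.

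GARS1, with the signals given above, differed by −0.95 with a standard error of 0.15 (limma, adjusted p = 0.00398). NARS2 had signals of 316, 450.5 and 393 units in KKU-100 and of 781, 705 and 825 units in HuccT1, and its log2 difference was −1.01 with a standard error of 0.16 (limma, adjusted p = 0.00427). WARS2, the mitochondrial enzyme for tryptophan, had 85.6, 105 and 92.4 units in KKU-100 and 197, 171 and 163 units in HuccT1, with a log2 difference of −0.91 and a standard error of 0.15 (limma, adjusted p = 0.00546). For these genes too the arrays of the lines did not overlap. The cytosolic partner WARS1 ran the other way, with 2575, 3133 and 3106 units in KKU-100 and 1539, 1698 and 2059.7 units in HuccT1, a log2 difference of 0.74 and a standard error of 0.08 (limma, adjusted p = 0.00133).

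CARS1, FARSA, FARSB, IARS1, SARS1, CARS2 and YARS2 were also lower in KKU-100, with log2 differences between −0.78 and −0.31, and HARS2, LARS2, RARS1 and KARS1 were higher, with differences between 0.16 and 0.66. The line difference of FARSA was −1.45 on the solvent arrays and −0.61 on the high-dose arrays, and that of CARS1 was −0.10 and −1.15. Of the 16 members called, 10 were called under every alternative that used all 6 arrays. GARS1, IARS1, NARS2, TARS1, WARS1 and WARS2 were called also when each array was left out in turn. With any treated array left out, 1 member was called higher, and leaving out either solvent array gave 8. With a high-dose array of either line left out, 5 members were called lower. Over these fits with 1 array left out, 16.1% to 28.4% of all probe sets were called higher and 16.6% to 26.4% lower.

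**Figure D4:**
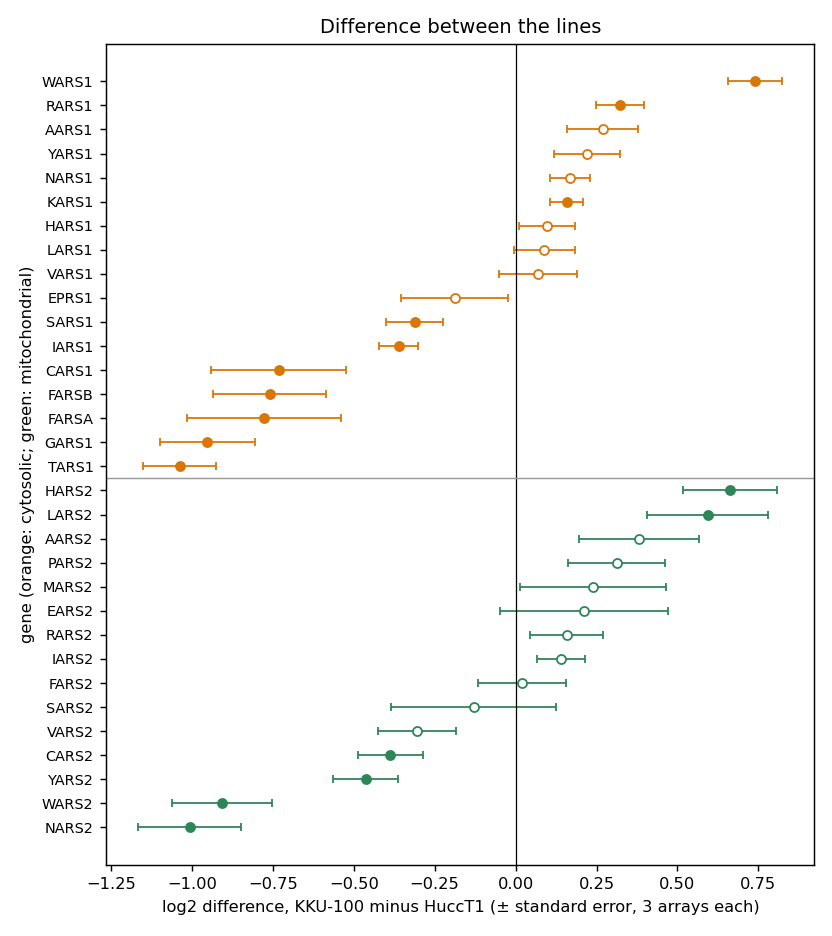
Log2 difference between KKU-100 and HuccT1 for the 17 cytosolic (orange) and 15 mitochondrial (green) enzymes, from limma over 3 arrays of each line, with bars of 1 standard error. Filled points had an adjusted p below 0.05 over 27307 probe sets. TARS1 (−1.04) and NARS2 (−1.01) lay farthest below 0, and WARS1 (0.74) and HARS2 (0.66) farthest above.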

How the data were processed

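Total RNA of 2 cell lines was hybridised to 6 Affymetrix arrays. The deposited table holds signal intensity on a linear scale for each probe set. The submitters' processing notes name MAS5, with no version given, whereas the study's methods describe log2 values from GeneSpring. Here the intensities were converted to log2 with no added scaling, after removal of 62 control probe sets. By the array annotation, 41091 probe sets had 1 symbol, 1801 several and 11721 none. Where a gene had several probe sets, the brightest on average stood for it, and the level filter required the 50th percentile of mean log2 signal in the line. The cutoff was 1.5-fold. limma 3.58.1 (R 4.3.3) fitted line and dose as additive factors by lmFit, with trended eBayes, 2 residual and 3.41 prior degrees of freedom, and p-values adjusted by the Benjamini-Hochberg method over 27307 probe sets. The fit was tested on simulated data. Python 3.11.15, numpy 2.4.6 and pandas 2.3.3 were used for the rest. Signals were given for the members with the largest high-dose change in each line (4 cytosolic, 3 mitochondrial), the 3 smallest limma p-values and the largest line differences (3 of each compartment). EPRS1, EARS2, LARS2 and WARS1 were added after their values were seen, and so were the other members named with fold changes. The members and gene lists were chosen with earlier results of these data known. The alternatives were quantile normalization, arrays centred on their medians, signals floored at the 20th percentile, omission of the level filter, the median over probe sets, removal of probe sets that can match several transcripts, a 2-fold cutoff, eBayes untrended or robust, the dose rank as a linear term and leaving out each array.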

Additional observations from a re-analysis of the deposited data

Results flagged for a closer look

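Several members lay on opposite sides of the solvent array in KKU-100 and HuccT1 at both doses. On the brightest probe set none of them passed 1.5-fold in opposite directions. A dimmer probe set of FARSB did at the low dose, with 0.61 in KKU-100 and −0.67 in HuccT1. The median high-dose log2 fold change of the mitochondrial members was 0.45 higher in KKU-100 than in HuccT1, and 0.23 higher when each gene was summarised by the median over its probe sets. The same difference, KKU-100 minus HuccT1, was 0.99 for SARS2, 0.84 for FARSA, 0.75 for EARS2, 0.72 for LARS2, 0.56 for FARSB and −0.83 for EPRS1. With 1 array per condition none of these differences was tested, and each line has only 1 solvent array for its doses.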

How the results depend on the processing

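The number of arrays, 1 per condition, limits the precision of every fold change. Of the alternative values of medians and counts, 202 stayed close to the reported value, 21 were weaker, 6 stronger and 1 moved. For a median, close meant a shift below 0.154 on the log2 scale, the median residual standard deviation in limma. For a count it meant equal to the reported count or within 1.5-fold of it. All members passed the level filter and lay above the floor on their brightest probe sets. Omitting the filter or flooring the signals therefore left their fold changes unchanged. The brightest probe sets of the mitochondrial members all remained when those that can match several transcripts were removed, so these values were fixed too. Part of the 202 was thus settled in advance. At a 2-fold cutoff the cytosolic members higher numbered 0 (low dose) and 0 (high dose) for KKU-100, and 0 and 2 for HuccT1. The mitochondrial members higher in KKU-100 numbered 1 and 0, and those lower in HuccT1 0 and 0. Without probe sets that can match several transcripts, 1 cytosolic member was higher on the low-dose KKU-100 array and 3 on the high-dose HuccT1 array, among 11 that remained, and low-dose FARSB turned to −0.15 in KKU-100. With the median over probe sets, 2 cytosolic members were higher in KKU-100 at the high dose, and the mitochondrial median in HuccT1 at the high dose moved to −0.093. With arrays centred on their medians, 1 cytosolic member was higher in HuccT1 at the low dose. In limma, leaving out each array gave 0 to 3 members higher at the low dose and 0 to 5 at the high dose, and calls arose only when a solvent array was left out. For KKU-100 against HuccT1 it gave 1 to 8 members higher and 5 to 12 lower, and 3 were higher both without a trend in eBayes and without the level filter. Other alternatives called no member for dose. The adjusted p of AARS1 at the high dose ranged between 0.0259 and 0.561. Causes of these shifts were not tested.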
